A study of Homo sapiens with 18 samples.

Results

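The genes described here are 10 members of the matrix metalloproteinase (MMP) system, the 4 tissue inhibitors of metalloproteinases (TIMP1, TIMP2, TIMP3 and TIMP4) and 6 proteases (MMP1, MMP2, MMP3, MMP10, MMP14 and MMP16). They were taken by symbol from a table of 61487 gene identifiers, of which 40522 had a count in at least 1 library. TIMP3 was the gene that led to the choice, because it had been seen higher in 3 of the groups, so its values are given without a test. RNA was measured in MSC-hTERT cells, a line of human mesenchymal stem cells made immortal with telomerase, in 6 groups of 3 libraries each. The groups carry the names pMSCV (a retroviral vector, here the control), SRF (serum response factor, a transcription factor of muscle, cytoskeletal and growth-response genes), and 4 fusions of SRF, named SRF-RELA, SRF-PDGFRB, SRF-ICA1L and SRF-FOXO1 after the gene at the other end, of a kind found in soft tissue tumours with muscle-like features. All groups share the cell line, the telomerase, and a culture medium with serum, FGF-2, ascorbic acid and heparin. The labels do not say how strongly each construct was expressed, whether the cells were clones or pools, or whether the 3 libraries of a group came from separate cultures, so p-values measure only the spread between these libraries, which may be technical. Library numbers 1, 2 and 3 recur in every group.

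The libraries held 19362319 to 29806771 counts each, and the 10 genes took 0.733% to 1.36% of them. Levels are given as CPM, a gene's counts as a share of all counts of its library, on the usual scale. SRF stood at 60.96 ± 3.56 CPM (SD, n = 3) in pMSCV, at 945 ± 236 CPM in the SRF group, and at means of 182 to 326 CPM in the 4 fusion groups. ICA1L, PDGFRB and RELA were each higher in the group named after them than in pMSCV. FOXO1 was not, with 9.79 ± 3.99 CPM in its own group against 12.6 ± 4.27 CPM in pMSCV, so that group is referred to as the libraries labelled SRF-FOXO1. A gene is called where its Benjamini-Hochberg adjusted p, over the 18544 genes tested with edgeR's quasi-likelihood test, is under 0.05. The summed level of 6 mesenchymal stem cell markers (ENG, THY1, NT5E, ITGB1, CD44, VIM) was 5934 to 8159 CPM, and that of 9 markers of blood, endothelial and epithelial cells was 9.51 to 30.3 CPM, most of it PECAM1.

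MMPs are zinc enzymes that cut collagen and other proteins of the extracellular matrix, and also growth factors and receptors at the cell surface. They are made as inactive zymogens and are held in check by TIMPs, which bind the active site of an MMP in a tight complex. In mesenchymal cells the membrane-bound MMP14 is a main surface collagenase, and a complex of MMP14 with TIMP2 activates pro-MMP2, so that TIMP2 is both an inhibitor and a partner. TIMP3 differs from the other inhibitors in being held in the matrix and in blocking ADAM and ADAMTS proteases as well as MMPs. MMP1 and MMP3 are secreted enzymes that are switched on by serum, cytokines and AP-1 (FOS and JUN proteins).

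Coordinates are those of GENCODE release 29 on GRCh38. TIMP1 (ENSG00000102265) is at chrX:47582313-47586789, TIMP2 (ENSG00000035862) at chr17:78852977-78925387, TIMP3 (ENSG00000100234) at chr22:32801701-32863043 and TIMP4 (ENSG00000157150) at chr3:12153051-12159351. MMP2 (ENSG00000087245) is at chr16:55389700-55506691 and MMP14 (ENSG00000157227) at chr14:22836557-22849027. MMP10 (ENSG00000166670), MMP1 (ENSG00000196611) and MMP3 (ENSG00000149968) are neighbours on chr11, within 102770503 to 102843803. MMP16 is ENSG00000156103. TIMP1, TIMP3 and TIMP4 lie inside introns or overlap exons of the synapsin genes SYN1, SYN3 and SYN2 on the opposite strand. The synapsins had medians of 2 counts (SYN1), 7 counts (SYN3) and 1 count (SYN2) a library. TIMP2 overlaps CEP295NL on the same strand, which had a median of 12 counts. Whether the counting used the strand is not given in the sources used here. MMP3 and MMP10 share 59 words of 50 bases, of 2047 in MMP3 transcripts and 1756 in MMP10 transcripts. Words were counted at every position and can overlap, so they are not separate stretches. Some reads could be placed on either gene.

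Sequences of 250 bases before the RefSeq start site (GRCh38.p14) were found for 5 of the 10 genes, TIMP1, TIMP3, TIMP4, MMP10 and MMP14, and not for TIMP2, MMP1, MMP2, MMP3 and MMP16. Those of TIMP3 and MMP14, the inhibitor and the protease with the widest span of group means in CPM, are shown, and they were searched for the CArG box because SRF binds it. Capitals mark matches, on either strand, to a relaxed CArG box (CC, then 6 bases of which 5 are A or T and 1 is G or C, then GG). The windows are chr22:32801455-32801704 for TIMP3 and chr14:22836335-22836584 for MMP14, both on the plus strand and printed 5′ to 3′.
TIMP3: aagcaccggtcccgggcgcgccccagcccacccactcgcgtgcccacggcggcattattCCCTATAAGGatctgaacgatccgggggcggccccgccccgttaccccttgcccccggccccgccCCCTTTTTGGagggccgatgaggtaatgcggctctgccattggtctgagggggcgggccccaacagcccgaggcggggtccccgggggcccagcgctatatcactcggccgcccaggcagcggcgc
MMP14: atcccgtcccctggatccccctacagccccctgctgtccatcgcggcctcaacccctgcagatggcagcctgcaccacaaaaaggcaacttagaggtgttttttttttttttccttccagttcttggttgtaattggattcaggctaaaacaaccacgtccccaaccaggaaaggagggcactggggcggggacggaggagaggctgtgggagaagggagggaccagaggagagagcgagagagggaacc
TIMP3 held 2 relaxed matches, CCCTATAAGG and CCCTTTTTGG, which began 191 and 126 bases before the start site. Such a match was present in 5.96% of 35114 RefSeq promoter windows of the same length. The strict CArG box, with 6 inner bases that are all A or T, was in 1.16% of those windows. The AP-1 motif TGACTCA was in 4.2%, the FOXO motif GTAAACA in 2.98% and the NF-kB site in 5.21%. None of these 4 was in the windows of the 5 genes, and the relaxed CArG box was in none of the other 4. The GC box GGGCGG, present in 42.6% of all windows, occurred 5 times in TIMP3, 2 times in TIMP1, and once in each of TIMP4 and MMP14. A match is a description of the letters, not of binding.

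TIMP3, the matrix-held inhibitor with the widest range of targets, had the widest span of group means in CPM among the 4 inhibitors. Its level in pMSCV was 715, 1170 and 668 CPM in libraries 1, 2 and 3, and in SRF it was 873, 494 and 888 CPM. SRF-PDGFRB had 1111, 844 and 1753 CPM. Those labelled SRF-FOXO1 had 1839, 2357 and 2310 CPM, those of SRF-ICA1L 3133, 2598 and 2912 CPM and those of SRF-RELA 2017, 2959 and 3092 CPM. All 9 libraries of these last-named groups lay above the 9 libraries of pMSCV, SRF and SRF-PDGFRB, the closest pair being 1839 CPM (labelled SRF-FOXO1, number 1) and 1753 CPM (SRF-PDGFRB, number 3). The SRF-PDGFRB libraries overlapped pMSCV.

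Because TIMP3 was chosen on these values, the fold changes that follow are a description. On the log2 scale of the edgeR fit, TIMP3 was higher than in pMSCV by 1.43 ± 0.29 (SE) in the libraries labelled SRF-FOXO1, by 1.87 ± 0.29 in SRF-ICA1L, by 1.72 ± 0.29 in SRF-RELA and by 0.53 ± 0.29 in SRF-PDGFRB. Against SRF the same 3 groups were higher by 1.58, 2.01 and 1.86. The pMSCV and SRF libraries serve in all of these comparisons, so the values are not independent of each other. Leaving out any 1 of the 6 libraries compared moved the differences from pMSCV within 1.27 to 1.72 for the libraries labelled SRF-FOXO1, 1.70 to 2.16 for SRF-ICA1L and 1.56 to 2.01 for SRF-RELA. SRF-PDGFRB moved within 0.21 to 0.83. SYN3, whose intron holds TIMP3, had at most 18 counts in any library.

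**Figure D1:**
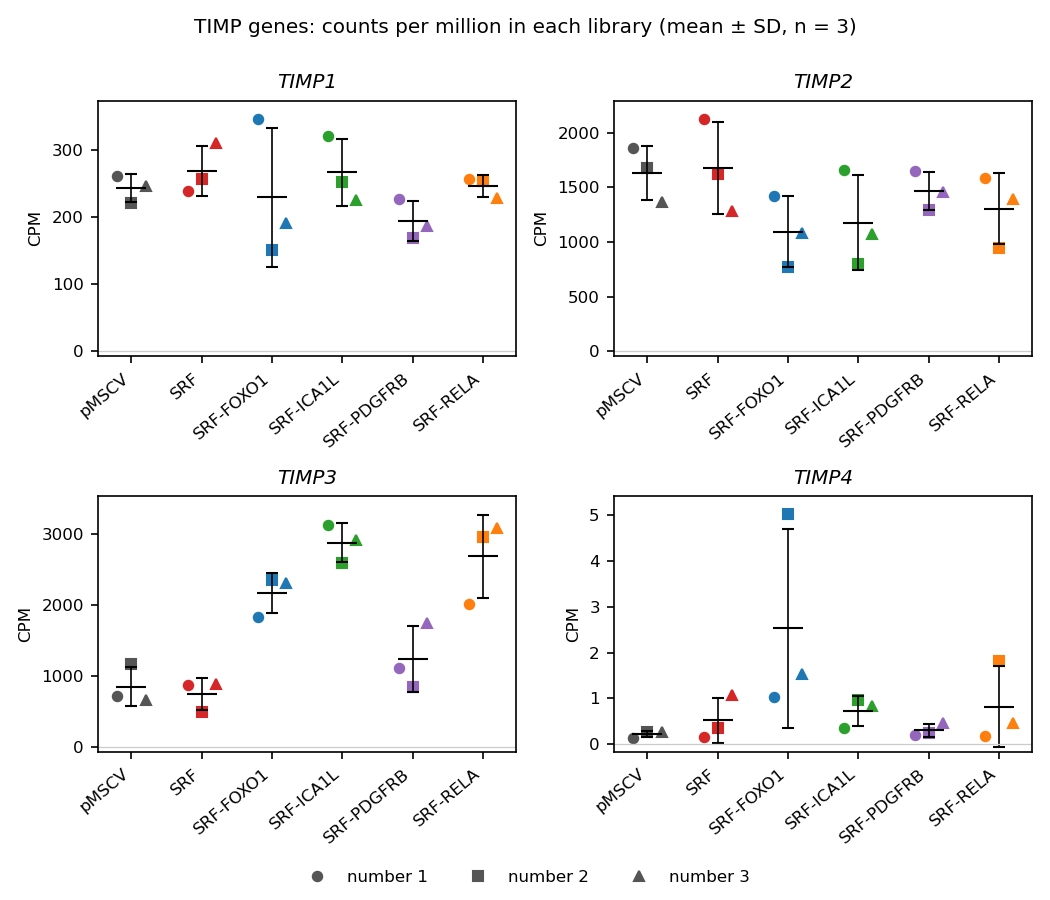
CPM (vertical axis, linear) of the 4 TIMP genes in each of the 18 libraries, by group, with library numbers as marker shapes and the mean ± SD of each group (n = 3) in black. TIMP3 sits at 1839 CPM or above in the 9 libraries of SRF-RELA, of SRF-ICA1L and labelled SRF-FOXO1, and at 1753 CPM or below in the other 9, while TIMP1 and TIMP2 overlap between most groups.

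TIMP2, the inhibitor that also takes part in MMP2 activation, was the most abundant inhibitor in pMSCV. It had 1856, 1677 and 1369 CPM in pMSCV and 2123, 1620 and 1283 CPM in SRF. Libraries labelled SRF-FOXO1 had 1422, 774 and 1085 CPM, SRF-ICA1L had 1657, 802 and 1073 CPM, and SRF-RELA had 1581, 943 and 1394 CPM. SRF-PDGFRB had 1645, 1297 and 1461 CPM. Every group overlapped pMSCV, but within a library number the libraries labelled SRF-FOXO1 and those of SRF-ICA1L were below pMSCV in 3 of 3 pairs. The log2 differences from pMSCV were -0.52 ± 0.26 (SE; adjusted p in edgeR = 0.369) in the libraries labelled SRF-FOXO1, -0.37 ± 0.26 (0.677) in SRF-ICA1L and -0.28 ± 0.26 (1.00) in SRF-RELA.

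TIMP1, a secreted inhibitor found in most connective tissue cells, had group means between 195 and 269 CPM. It had 262, 222 and 248 CPM in pMSCV and 240, 257 and 312 CPM in SRF. The group labelled SRF-FOXO1 had 347, 152 and 191 CPM, which are also the highest and the lowest of the 18 libraries. SRF-ICA1L had 322, 254 and 226 CPM, SRF-PDGFRB had 227, 170 and 187 CPM, and SRF-RELA had 258, 255 and 229 CPM. All 5 groups overlapped pMSCV, and the log2 differences were 0.24 ± 0.22 (SE; adjusted p in edgeR = 0.764) in SRF-ICA1L and -0.33 ± 0.22 (1.00) in SRF-PDGFRB. The SRF-PDGFRB libraries were below every SRF library and every SRF-RELA library, comparisons in which 17.9% and 13.9% of all genes had groups that did not overlap.

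TIMP4, an inhibitor best known from heart and other muscle tissue, had at most 8 counts in a pMSCV library. It had 4, 6 and 8 counts in pMSCV (0.142, 0.258 and 0.277 CPM) and 4, 9 and 31 counts in SRF. Libraries labelled SRF-FOXO1 had 31, 128 and 33 counts (1.04, 5.01 and 1.53 CPM). SRF-ICA1L had 9, 28 and 20 counts, SRF-PDGFRB had 6, 7 and 9 counts, and SRF-RELA had 4, 52 and 11 counts. Both the SRF-ICA1L libraries and those labelled SRF-FOXO1 lay above all pMSCV libraries, comparisons in which 21.7% and 19.9% of all genes had groups that did not overlap, and those of SRF, SRF-PDGFRB and SRF-RELA overlapped pMSCV. Number 2 was the highest library in SRF-RELA, in SRF-ICA1L and among those labelled SRF-FOXO1. The lowest library labelled SRF-FOXO1 was also above the highest of SRF-ICA1L, a comparison in which 8.63% of all genes did not overlap. The gene had at least 10 counts in 8 of the 18 libraries.

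The log2 difference of TIMP4 between the libraries labelled SRF-FOXO1 and pMSCV was 3.58 ± 0.89 (SE), with an edgeR adjusted p of 0.0737 over the 18544 genes tested. With the library number as a term (the replicate block, described with the processing), the difference was 3.44 ± 0.62 with an edgeR adjusted p of 0.00432. Against SRF-PDGFRB it was 3.21 ± 0.86 (edgeR adjusted p = 0.108), and 3.05 ± 0.61 with the block (0.0108). In SRF-ICA1L against pMSCV it was 1.79 ± 0.93 (0.531) and in SRF-RELA against pMSCV 1.96 ± 0.92 (1.00), and neither passed with the block (0.178 and 0.440). Without library 1 labelled SRF-FOXO1, the difference from pMSCV passed without the block too, at an edgeR adjusted p of 0.0309. Leaving out any other of the libraries compared gave no call.

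Per kilobase of exon, which allows levels of different genes to be compared, TIMP2 led the inhibitors in pMSCV and SRF and TIMP3 led in 3 of the fusion groups. TIMP2 made up 45.8% ± 3.99 (SD, n = 3) of the summed TIMP level in pMSCV and 46.6% ± 8.77 in SRF, and TIMP3 made up 28.9% ± 6.75 and 25.4% ± 5.96. TIMP3 was 58.3% ± 11.6 of the sum in the libraries labelled SRF-FOXO1, 62.5% ± 4.33 in SRF-ICA1L and 59.4% ± 8.74 in SRF-RELA. TIMP2 was 23.5% ± 5.24, 20.3% ± 4.29 and 23.99% ± 7.30 of it in the same order. SRF-PDGFRB was even, with 40.1% ± 8.52 TIMP3 and 40.3% ± 5.44 TIMP2. These shares contain the TIMP3 values on which the gene was chosen and are not a further result about it.

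Among all 10 genes, MMP14 had the highest mean level per kilobase in every group, from 632 to 1131 CPM per kb. MMP2 was second in every group but SRF-ICA1L, where TIMP3 (626 CPM per kb) stood between MMP14 (640) and MMP2 (569). The ranges of MMP14, MMP2 and TIMP3 overlapped from one neighbour to the next in SRF-RELA, in SRF-ICA1L and in the libraries labelled SRF-FOXO1. In pMSCV the libraries of MMP14, MMP2 and TIMP2 did not overlap, and TIMP2, TIMP3 and TIMP1 overlapped in turn. MMP16 and MMP1 followed at 4.02 to 15.3 CPM per kb, with overlapping ranges in every group. MMP3, TIMP4 and MMP10 were the lowest 3 in every group, none above 1.78 CPM per kb.

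MMP14, the membrane-bound collagenase that activates MMP2, was lower in the libraries labelled SRF-FOXO1 and in SRF-ICA1L than in pMSCV when libraries of the same number were compared. It had 6477, 4455 and 4215 CPM in pMSCV and 5768, 3870 and 2563 CPM in SRF. Those labelled SRF-FOXO1 had 4504, 1704 and 2262 CPM, and SRF-ICA1L had 4821, 1815 and 1933 CPM. SRF-RELA had 4966, 2374 and 3603 CPM and SRF-PDGFRB had 6304, 3706 and 4379 CPM. All groups overlapped pMSCV, and the library numbered 1 was the highest in each. The 6 libraries numbered 1 spanned 4504 to 6477 CPM, above the 1704 to 4455 CPM of those numbered 2 and the 1933 to 4379 CPM of those numbered 3.

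Within a number, the ratio of the libraries labelled SRF-FOXO1 to pMSCV was 0.695, 0.383 and 0.537 for MMP14. The ratio of SRF-ICA1L to pMSCV was 0.744, 0.407 and 0.459, that of SRF-RELA 0.767, 0.533 and 0.855, and that of SRF 0.891, 0.869 and 0.608. SRF-PDGFRB to pMSCV was 0.973, 0.832 and 1.04, the only construct with a ratio above 1. Without the block the log2 differences from pMSCV were -0.79 ± 0.43 (SE; adjusted p in edgeR = 0.402) in the libraries labelled SRF-FOXO1 and -0.72 ± 0.43 (0.597) in SRF-ICA1L. With the block they were -0.86 ± 0.19 (0.0143) and -0.83 ± 0.19 (0.0229). SRF-RELA passed in neither fit, at -0.42 ± 0.43 (1.00) and -0.44 ± 0.19 (0.545). Against SRF-PDGFRB, MMP14 passed with the block in the libraries labelled SRF-FOXO1 (-0.77 ± 0.19, edgeR adjusted p = 0.0343, and 0.452 without it) and in SRF-ICA1L (-0.74 ± 0.19, 0.0382, and 0.618 without it).

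MMP2, the gelatinase that cuts denatured collagen and basement membrane collagen, ranged from 2276 to 4027 CPM over the 18 libraries. It had 4027, 3941 and 3131 CPM in pMSCV, 3891, 3775 and 2555 CPM in SRF and 3728, 3698 and 3269 CPM in SRF-PDGFRB. Those labelled SRF-FOXO1 had 2774, 2276 and 2375 CPM, all below the lowest pMSCV library. They also lay below all libraries of SRF-PDGFRB and of SRF-RELA, where 21.5% and 15.6% of all genes did not overlap. SRF-ICA1L had 3292, 2759 and 2375 CPM and SRF-RELA had 3395, 3187 and 2878 CPM, both of which overlapped pMSCV. The log2 difference from pMSCV was -0.51 ± 0.18 (SE; adjusted p in edgeR = 0.197), and -0.49 ± 0.12 (0.0187) with the block. From SRF-PDGFRB it was -0.45 ± 0.18 (0.258), and -0.44 ± 0.12 (0.0421) with the block. In SRF-ICA1L and SRF-RELA against pMSCV the differences were -0.29 ± 0.18 (0.617) and -0.18 ± 0.18 (1.00), and neither passed with the block (0.191 and 0.822). Against SRF, the libraries labelled SRF-FOXO1 differed by -0.42 ± 0.18 (edgeR adjusted p = 0.283), which passed only without library 3 of SRF (0.0495).

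MMP16, a second membrane-bound MMP that can also activate MMP2, was far less abundant than MMP2 and MMP14. It had 183, 158 and 184 CPM in pMSCV and 145, 125 and 90.4 CPM in SRF. Those labelled SRF-FOXO1 had 121, 59.4 and 97.0 CPM and SRF-ICA1L had 145, 94.3 and 105 CPM. SRF-PDGFRB had 205, 122 and 154 CPM and SRF-RELA had 186, 96.9 and 129 CPM. The libraries of SRF (a comparison in which 10.1% of all genes did not overlap), of SRF-ICA1L and labelled SRF-FOXO1 lay below all pMSCV libraries, and SRF-PDGFRB and SRF-RELA overlapped them. The log2 difference of the libraries labelled SRF-FOXO1 from pMSCV was -0.86 ± 0.27 (SE; adjusted p in edgeR = 0.151), and -0.90 ± 0.15 (0.00280) with the block. From SRF-PDGFRB it was -0.73 ± 0.27 (0.232), and -0.73 ± 0.15 (0.0141) with the block. In SRF-ICA1L against pMSCV it was -0.50 ± 0.27 (0.540), and -0.53 ± 0.15 (0.0607) with the block.

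**Figure D2:**
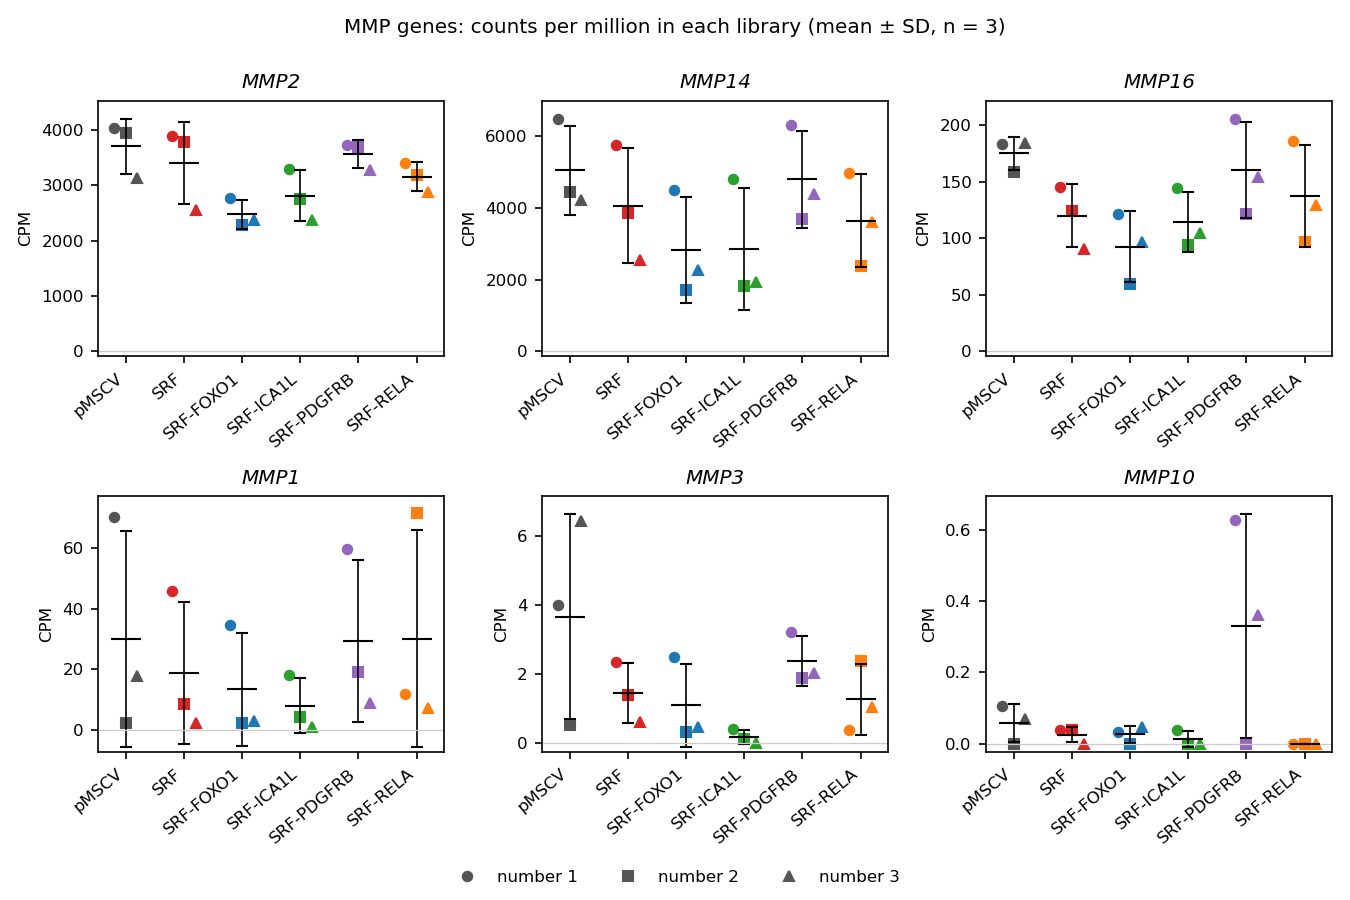
CPM (vertical axes, linear) of the 6 MMP genes in each of the 18 libraries, by group, with library numbers as marker shapes and the mean ± SD of each group (n = 3) in black. MMP14 is highest in library 1 of every group (4504 to 6477 CPM), MMP2 is below all pMSCV libraries in those labelled SRF-FOXO1, and MMP1 ranges from 1.13 to 71.6 CPM with a wide spread inside groups.

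MMP1 and MMP3, the secreted collagenase and stromelysin of the chromosome 11 cluster, varied widely between libraries of a group. MMP1 had 70.4, 2.28 and 17.8 CPM in pMSCV and 45.8, 8.42 and 2.22 CPM in SRF. Libraries labelled SRF-FOXO1 had 34.8, 2.35 and 2.91 CPM and SRF-ICA1L had 18.3, 4.38 and 1.13 CPM. SRF-PDGFRB had 59.7, 19.3 and 8.93 CPM and SRF-RELA had 11.7, 71.6 and 7.23 CPM. Library 1 was the highest in every group but SRF-RELA, where library 2 was the highest of all 18. All 5 groups overlapped pMSCV. FOS, a part of AP-1, also differed by library number. It was at 12.1 to 34.4 CPM in the 6 libraries numbered 2. Those numbered 1 had 449 to 1114 CPM and those numbered 3 had 381 to 631 CPM. The medians of MMP1 were 40.3, 6.40 and 5.07 CPM in numbers 1, 2 and 3. Over the 18 libraries Pearson's r of log2 CPM with MMP1 was 0.27 for FOS, 0.26 for FOSL1 and -0.05 for JUN. The part of FOS in the spread of MMP1 was not tested.

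MMP3 had 113, 12 and 186 counts in pMSCV, 63, 36 and 17 in SRF, and 74, 8 and 10 in the libraries labelled SRF-FOXO1. SRF-ICA1L had 10, 3 and 0 counts (0.396, 0.104 and 0 CPM). SRF-PDGFRB had 92, 55 and 39 counts and SRF-RELA had 8, 68 and 25. The SRF-ICA1L libraries lay below all libraries of pMSCV, SRF and SRF-PDGFRB, and in the comparisons with SRF and SRF-PDGFRB 15.3% and 23.8% of all genes did not overlap. A count of 0 in library 3 of SRF-ICA1L allows up to 3 counts, or 0.125 CPM, by counting error alone. The log2 difference of SRF-ICA1L from pMSCV was -4.31 ± 1.12 (SE; adjusted p in edgeR = 0.130), and -4.37 ± 1.12 (0.0420) with the block. From SRF-PDGFRB it was -3.68 ± 1.13 (0.172), and -3.72 ± 1.14 (0.0860) with the block. For the libraries labelled SRF-FOXO1 the difference from pMSCV was -1.67 ± 0.90 (0.398).

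MMP10, a close relative of MMP3, was counted 35 times in all 18 libraries and was too low to be tested. It had 3, 0 and 2 counts in pMSCV, 1, 1 and 0 in SRF, 1, 0 and 1 in the libraries labelled SRF-FOXO1, and 1, 0 and 0 in SRF-ICA1L. SRF-PDGFRB had 18, 0 and 7 counts, and SRF-RELA had 0 in each library. The 25 counts of SRF-PDGFRB came from libraries 1 and 3. Taken as counted, the SRF-PDGFRB mean of 0.329 CPM was 2.72-fold a floor of 3 counts in each SRF-RELA library. Library 2 was at 0 in both groups, so this fold is not a lower bound for every number. MMP10 was at 0 in 9 of the 18 libraries.

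In all, 8 of the 9 members other than TIMP3 were tested. In the 5 comparisons with pMSCV none passed an adjusted p of 0.05 in edgeR without the block. Of the 40 tests, 5 had an unadjusted p under 0.05. The share of all genes at that unadjusted level is not given. This count and the like counts further on are therefore a description. Over all genes, 0.928% were called in the libraries labelled SRF-FOXO1 against pMSCV, 0.469% in SRF-ICA1L, 0.183% in SRF-RELA, 0.0324% in SRF-PDGFRB and 0.027% in SRF. DESeq2 called 2 of the 40, TIMP4 in the libraries labelled SRF-FOXO1, where it called 2.89% of all genes, and MMP3 in SRF-ICA1L, where it called 1.76%. With the replicate block edgeR called 6 of the 40, where 7.03% of all genes were called in the libraries labelled SRF-FOXO1 and 4.66% in SRF-ICA1L. The 4 in the libraries labelled SRF-FOXO1 were TIMP4 (higher) and MMP2, MMP14 and MMP16 (lower), and the 2 in SRF-ICA1L were MMP3 and MMP14 (both lower). The block called no member in SRF-RELA, SRF-PDGFRB or SRF against pMSCV, where it called 0.971%, 0.178% and 0.243% of all genes.

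Against SRF none of the 32 tests passed in edgeR without the block or in DESeq2, and 5 had an unadjusted p under 0.05 in edgeR. There 1.36% of all genes were called in the libraries labelled SRF-FOXO1, 0.782% in SRF-ICA1L, 0.388% in SRF-RELA and 0.146% in SRF-PDGFRB. With the block no member was called in SRF-ICA1L, SRF-PDGFRB or SRF-RELA against SRF, where 4.73%, 2.34% and 1.73% of all genes were called. Between fusions none of the 48 tests passed in edgeR without the block, 9 had an unadjusted p under 0.05, and DESeq2 called 2, TIMP4 in the libraries labelled SRF-FOXO1 and MMP3 in SRF-ICA1L, both against SRF-PDGFRB (2.56% and 2.49% of all genes). The comparisons with SRF-PDGFRB held all of the calls: with the block 4 members were called in the libraries labelled SRF-FOXO1 (TIMP4, MMP2, MMP14 and MMP16) and 1 in SRF-ICA1L (MMP14). In those comparisons 0.717% and 0.82% of all genes were called without the block, and 4.35% and 4.76% with it. The SRF-PDGFRB libraries enter both. In the other 4 pairs of fusions no member was called in either edgeR fit. Over all genes, without and with the block, 0.027% and 0.911% were called for the libraries labelled SRF-FOXO1 against SRF-ICA1L, and 0.00539% and 0.167% for the same libraries against SRF-RELA. For SRF-ICA1L against SRF-RELA they were 0.0108% and 0.0162%, and for SRF-PDGFRB against SRF-RELA 0.162% and 0.847%.

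The direction over the tested members without TIMP3 was mostly downward in the libraries labelled SRF-FOXO1. There 7 of 8 were lower than in pMSCV, with a median log2 difference of -0.65, against a median of 0.01 over all genes. In SRF-ICA1L 6 of 8 were lower (median -0.44), in SRF-RELA 5 of 8 (-0.23), in SRF-PDGFRB 7 of 8 (-0.11) and in SRF 5 of 8 (-0.18). In the comparison of the libraries labelled SRF-FOXO1 with pMSCV, 3 of 8 members did not overlap (TIMP4, MMP2 and MMP16), where 19.9% of all genes did not. In SRF-ICA1L 3 of 8 did not (TIMP4, MMP3 and MMP16), where 21.7% of all genes did not, and in SRF 1 of 8 (MMP16), where 10.1% did not. In SRF-PDGFRB and SRF-RELA all 8 overlapped, where 9.93% and 14.9% of all genes did not. A lower level in these bulk libraries could come from fewer expressing cells or from less RNA per cell, and the 2 cannot be told apart.

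**Figure D3:**
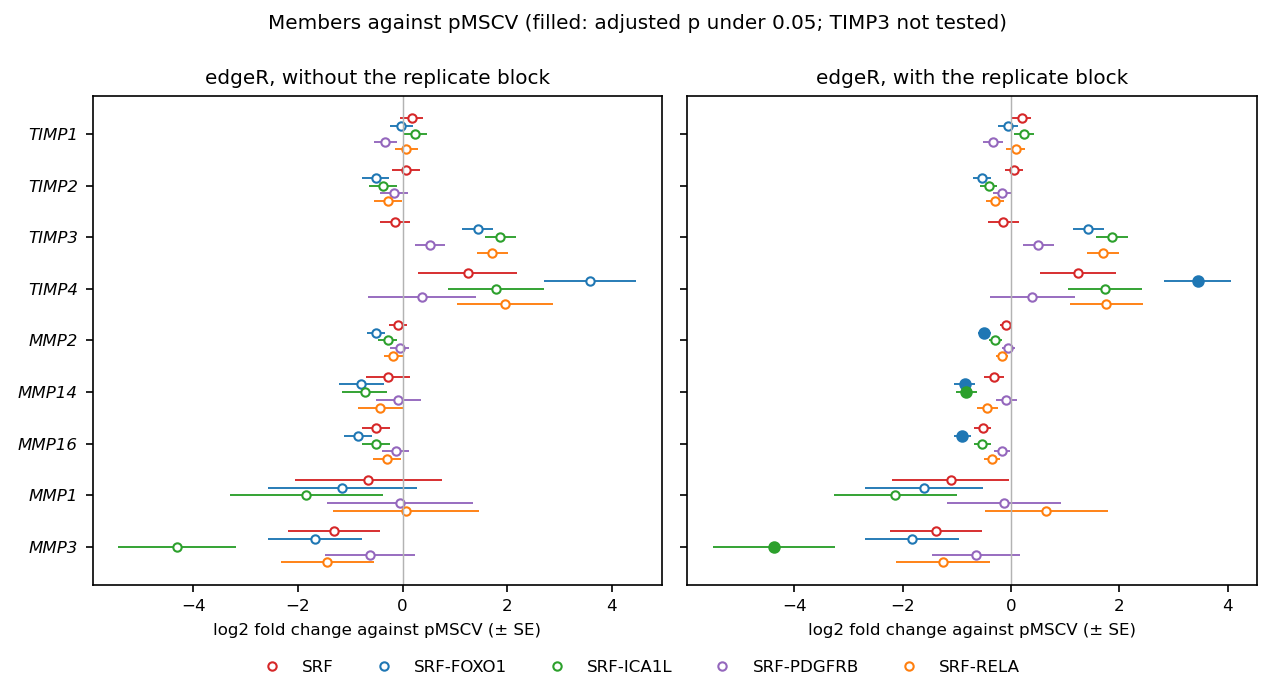
Log2 fold change against pMSCV (horizontal axis) with its SE for 9 members in the 5 constructs, from edgeR without the replicate block (left) and with it (right), filled points having an adjusted p under 0.05. No point is filled on the left. On the right TIMP4, MMP2, MMP14 and MMP16 are filled for the libraries labelled SRF-FOXO1 and MMP14 and MMP3 for SRF-ICA1L. TIMP3 is drawn without a test.

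TIMP2 and the abundant proteases were positively correlated across the 18 libraries. Pearson's r of log2 CPM was 0.92 (Spearman's rho 0.93) between TIMP2 and MMP14, 0.87 (0.85) between MMP14 and MMP16, 0.77 (0.79) between TIMP2 and MMP16, and 0.75 (0.72) between MMP2 and MMP14. Without the 2 libraries farthest from the median on the first gene of each pair, r was 0.88, 0.86, 0.67 and 0.67. The libraries share groups and library numbers, so they are not independent, and the values are a description. Within the 6 libraries of a number, r between TIMP2 and MMP14 was 0.64, 0.97 and 0.90, r between MMP14 and MMP16 was 0.68, 0.87 and 0.84, and r between MMP2 and MMP14 was 0.90, 0.92 and 0.98. For TIMP2 and MMP16 it was 0.17, 0.84 and 0.59, the lowest value being within the libraries numbered 1.

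TIMP4 ran the other way, with r of -0.90 (rho -0.88) against MMP16, -0.85 (-0.82) against TIMP2 and -0.84 (-0.82) against MMP14. These stayed between -0.72 and -0.94 within library numbers. MMP1 and MMP3 followed each other (r 0.78, rho 0.75), with 0.96, 0.78 and 0.95 within numbers. TIMP3 had weaker relations, with r of -0.49 (rho -0.38) against MMP14 and -0.52 (-0.37) against TIMP2. Within numbers these were -0.80, -0.84 and -0.40 for MMP14 and -0.51, -0.87 and -0.34 for TIMP2. The within-number values still hold the group differences in TIMP3, on which the gene was chosen. With group means removed, r over the 18 libraries was -0.20 for MMP14 and -0.09 for TIMP2. MMP14 spanned 1704 to 4966 CPM in the 9 libraries of SRF-RELA, of SRF-ICA1L and labelled SRF-FOXO1, and 2563 to 6477 CPM in the other 9.

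**Figure D4:**
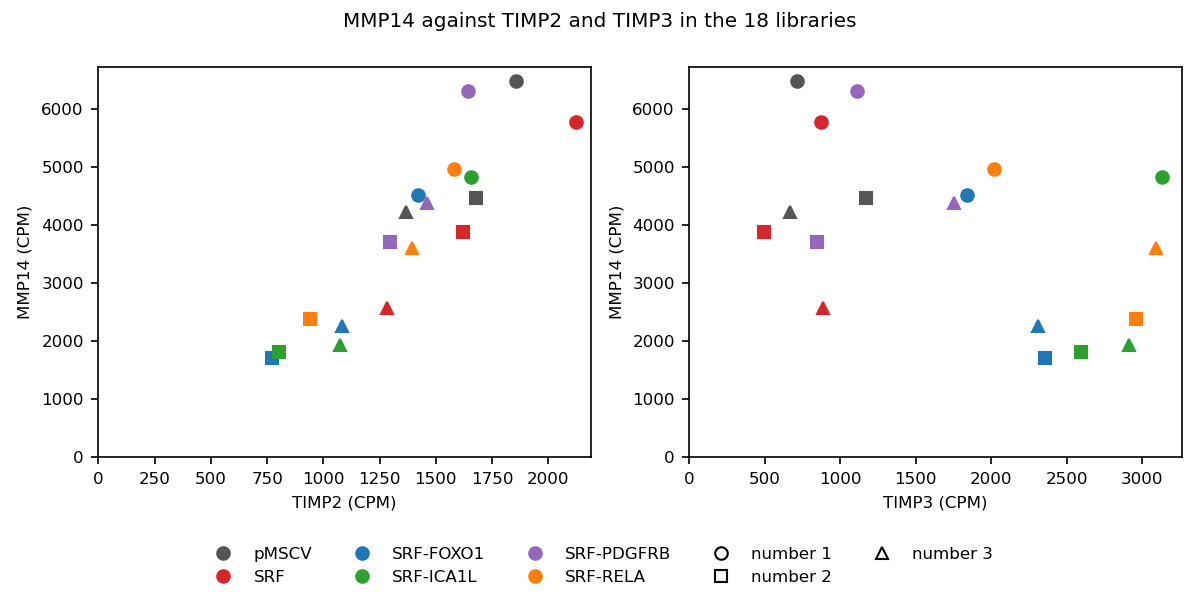
CPM of MMP14 (vertical axis) against CPM of TIMP2 (left) and of TIMP3 (right) in the 18 libraries, with groups as colours and library numbers as marker shapes. MMP14 follows TIMP2 over all groups (r 0.92 on the log2 scale), while on the right r is -0.49, and 3 groups lie at 1839 CPM of TIMP3 or above and the other 3 at 1753 CPM or below, with overlapping MMP14 levels.

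The 5 genes whose log2 CPM followed TIMP3 most closely over the 18 libraries, of 18544 genes tested, were IGFBP5 (r 0.94), DIRC3-AS1 (0.94), NRXN3 (0.92), CMKLR1 (0.92) and THBS1 (0.92). The libraries share groups, TIMP3 itself differs between groups, and r includes those differences, so it and the levels are a description. IGFBP5, a secreted binding protein of insulin-like growth factors, averaged 7.82 ± 3.07 CPM (SD, n = 3) in pMSCV and 4.91 ± 1.85 CPM in SRF. Its mean was 96.2 ± 62.6 CPM in the libraries labelled SRF-FOXO1, 243 ± 123 in SRF-ICA1L, 147 ± 24.2 in SRF-RELA and 18.5 ± 11.04 in SRF-PDGFRB. CMKLR1, the receptor for chemerin, was at 0.508 ± 0.287 CPM in pMSCV and 0.707 ± 0.260 in SRF. Its mean was 81.1 ± 40.2 CPM in the libraries labelled SRF-FOXO1, 71.1 ± 32.6 in SRF-ICA1L, 73.99 ± 40.7 in SRF-RELA and 2.13 ± 0.666 in SRF-PDGFRB. NRXN3, a neuronal adhesion protein, had means of 32.4 to 53.9 CPM in the same 3 groups and of 0.132 to 0.282 CPM in the other 3. DIRC3-AS1, an antisense transcript, had means of 2.81 to 3.33 CPM and 0.624 to 1.43 CPM in the same order.

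The wider system was read from 5 lists with 67 genes: 17 other MMPs, 9 ADAM proteases, 19 ADAMTS proteases, 8 genes of plasminogen activation (the plasmin cascade, which activates several pro-MMPs) and 14 other regulators of metalloproteinases. Of these, 56 could be tested. Against pMSCV 4 of 280 tests passed in edgeR, all higher, in the libraries labelled SRF-FOXO1 (ADAMTS8, PLAU and THBS1) and in SRF-ICA1L (THBS1). That is 1.43% of the list tests, beside 0.328% of all gene tests in the same 5 comparisons. Against SRF 6 of 224 passed (2.68%, beside 0.67% of all), all higher, and between fusions 2 of 336 (0.595%, beside 0.29%). With the replicate block 16 of 280 passed against pMSCV (11 higher, 5 lower), or 5.71% beside 2.62% of all. Against SRF, without the comparison of the libraries labelled SRF-FOXO1, the block called 13 of 168 (10 higher, 3 lower), or 7.74% beside 2.94%. Between fusions it called 26 of 336 (12 higher, 14 lower), or 7.74% beside 1.84%. By list, over all 15 comparisons without the block, 4 of 240 tests passed among the ADAMTS proteases (3 higher, 1 lower), 3 of 105 in plasminogen activation and 5 of 210 among the other regulators (all higher), or 1.67%, 2.86% and 2.38% beside 0.404% of all. The 3 higher ADAMTS calls were all of ADAMTS8, which met the count filter only through the libraries labelled SRF-FOXO1, where it is high. All 5 calls among the other regulators were of 1 gene, THBS1, in comparisons that share libraries. Both genes are also in the counts against pMSCV and against SRF. The list shares therefore describe few genes and are not support for a list. None of the other MMPs and none of the ADAM proteases passed in any comparison without the block, with 17 of 150 and 17 of 135 tests at an unadjusted p under 0.05. DESeq2 called 2 and 3 of these. Shares of all genes over the 15 comparisons are not given for the unadjusted counts or for DESeq2, so both are a description. With the block, 2 tests of the other MMPs and 1 of the ADAM proteases passed against pMSCV, 1 and 3 passed against SRF in the 3 fusions other than the libraries labelled SRF-FOXO1, and 1 of each passed between fusions.

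The 3 ADAM calls against SRF were of 1 gene, ADAM19, a membrane-bound metalloproteinase, which was picked out after its values were seen. It had 208, 279 and 236 CPM in SRF, 305, 349 and 453 CPM in SRF-ICA1L, 448, 432 and 576 CPM in SRF-PDGFRB and 372, 332 and 466 CPM in SRF-RELA. Every library of these fusions was above every SRF library, while pMSCV, at 270, 402 and 274 CPM, overlapped SRF, SRF-ICA1L and SRF-RELA. Of all genes, 15.3% did not overlap between SRF-ICA1L and SRF, and 17.9% did not between SRF-PDGFRB and SRF. The share for SRF-RELA against SRF is not given, so that separation is a description. Within a number, SRF itself was below pMSCV in 3 of 3 pairs, with ratios of 0.770, 0.694 and 0.862. With the block the log2 differences from SRF were 0.68 ± 0.17 (SE; adjusted p in edgeR = 0.0344), 0.97 ± 0.17 (0.0102) and 0.72 ± 0.17 (0.0498) in the same order. Without it none passed (0.186, 0.121 and 0.285). Neither edgeR fit called ADAM19 in any comparison with pMSCV. The gene was chosen on its values and the same 3 SRF libraries serve all 3 tests, so the adjusted p-values are a description.

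THBS1, thrombospondin-1, a matrix protein that binds MMPs and activates TGF-beta, was higher in the 3 groups in which TIMP3 was high, passing without the block in 2 of them against pMSCV and in all 3 against SRF. It had 416, 695 and 474 CPM in pMSCV and 487, 415 and 414 CPM in SRF. Those labelled SRF-FOXO1 had 1208, 4729 and 1924 CPM, SRF-ICA1L had 2366, 3518 and 2333 CPM, and SRF-RELA had 1582, 3432 and 1965 CPM. SRF-PDGFRB had 840, 831 and 822 CPM, above both controls and below every library of those 3 groups. The log2 difference from pMSCV was 2.43 ± 0.44 (SE; adjusted p in edgeR = 0.0212) in the libraries labelled SRF-FOXO1 and 2.50 ± 0.44 (0.0160) in SRF-ICA1L. In SRF-RELA it was 2.21 ± 0.44 (0.0668), and 2.16 ± 0.32 with the block (0.00278), and DESeq2 called it too (4.55e-05), so that all 3 groups passed in those fits. Against SRF it was 2.66 (0.0103), 2.73 (0.00843) and, in SRF-RELA, 2.44 (0.0284). The calls against pMSCV were lost without any 1 of the 3 pMSCV libraries (adjusted p 0.0524 to 0.152 for those labelled SRF-FOXO1 and 0.0516 to 0.122 for SRF-ICA1L) and without library 2 of the fusion (0.0605 and 0.0805). Against SRF they were lost without library 1 or 2 of SRF for those labelled SRF-FOXO1 (0.0591 and 0.0681) and without library 2 or 3 of SRF for SRF-ICA1L (0.0628 and 0.0501). The SRF-RELA call was lost without any 1 SRF library (0.101 to 0.164) or library 2 of SRF-RELA (0.137).

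PLAU, urokinase, which turns plasminogen into plasmin, rose in the libraries labelled SRF-FOXO1. It had 270, 434 and 277 CPM in pMSCV, 250, 485 and 431 CPM in SRF and, in those labelled SRF-FOXO1, 853, 2574 and 1089 CPM, which were the highest of the 18. SRF-ICA1L had 361, 677 and 439 CPM, SRF-RELA 382, 750 and 636 CPM and SRF-PDGFRB 461, 556 and 602 CPM. Within a number each of these 3 was also above pMSCV in 3 of 3 pairs. The SRF-PDGFRB libraries did not overlap pMSCV, a comparison in which 9.93% of all genes did not overlap. The log2 differences from pMSCV of 0.71 ± 0.41, 0.91 ± 0.41 and 0.72 ± 0.41 did not pass in edgeR without the block (adjusted p = 0.587, 1.00 and 1.00) or with it (0.105, 0.1004 and 0.395). For the libraries labelled SRF-FOXO1 the log2 difference was 2.32 ± 0.43 from pMSCV (SE; adjusted p in edgeR = 0.0214) and 2.04 ± 0.43 from SRF (0.0289). The first call was lost without any 1 pMSCV library (0.0556 to 0.160) or library 2 labelled SRF-FOXO1 (0.0857), and the second without library 1 or 2 of SRF (0.156 and 0.0887) or library 2 labelled SRF-FOXO1 (0.130).

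ADAMTS8, a secreted metalloproteinase with thrombospondin repeats, was at or near 0 in pMSCV (0, 2 and 0 counts), SRF (0, 0 and 1) and SRF-PDGFRB (0 in each). In those labelled SRF-FOXO1 there were 37, 40 and 29 counts, in SRF-RELA 13, 35 and 6, and in SRF-ICA1L 5, 1 and 0. Only 5 libraries had at least 10 counts, the 3 labelled SRF-FOXO1 and 2 of SRF-RELA. The gene therefore met the count filter only through the libraries labelled SRF-FOXO1, where it is high, and the adjusted p-values given for them are a description rather than support. Without the filter they were 0.00266 against pMSCV, 0.00131 against SRF and 0.00122 against SRF-PDGFRB. These too are a description, because the gene was named for its calls in the same comparisons. The same holds for the ratios, intervals and adjusted p-values that follow. The 106 counts of the libraries labelled SRF-FOXO1 against 2 in pMSCV gave a ratio of 55.4 after scaling to library totals (exact 95% interval 14.95 to 463, counting error only; edgeR adjusted p = 0.0187). Against SRF the ratio was 113 (19.8 to 4497; 0.0108), and against SRF-PDGFRB the level was at least 11.4-fold higher, with a floor of 3 counts in each library (0.0123). In SRF-RELA the adjusted p against pMSCV was 0.119, and 0.0338 with the block. The 3 calls for the libraries labelled SRF-FOXO1 were lost without library 1 or 3 of pMSCV (0.141 and 0.121) or library 2 labelled SRF-FOXO1 (0.0630), without library 1 or 2 of SRF (0.0677 and 0.0695), and without any 1 SRF-PDGFRB library (0.0502 to 0.0719). ADAMTS12, of the same protease family, was the 1 listed gene that fell without the block. Libraries labelled SRF-FOXO1 had 153, 147 and 191 CPM against 333, 268 and 320 CPM in SRF-PDGFRB, a log2 difference of -0.82 ± 0.17 (edgeR adjusted p = 0.0361). That call was lost in 5 of 6 fits that left out 1 library (0.0602 to 0.140), the exception being library 3 labelled SRF-FOXO1.

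**Figure D5:**
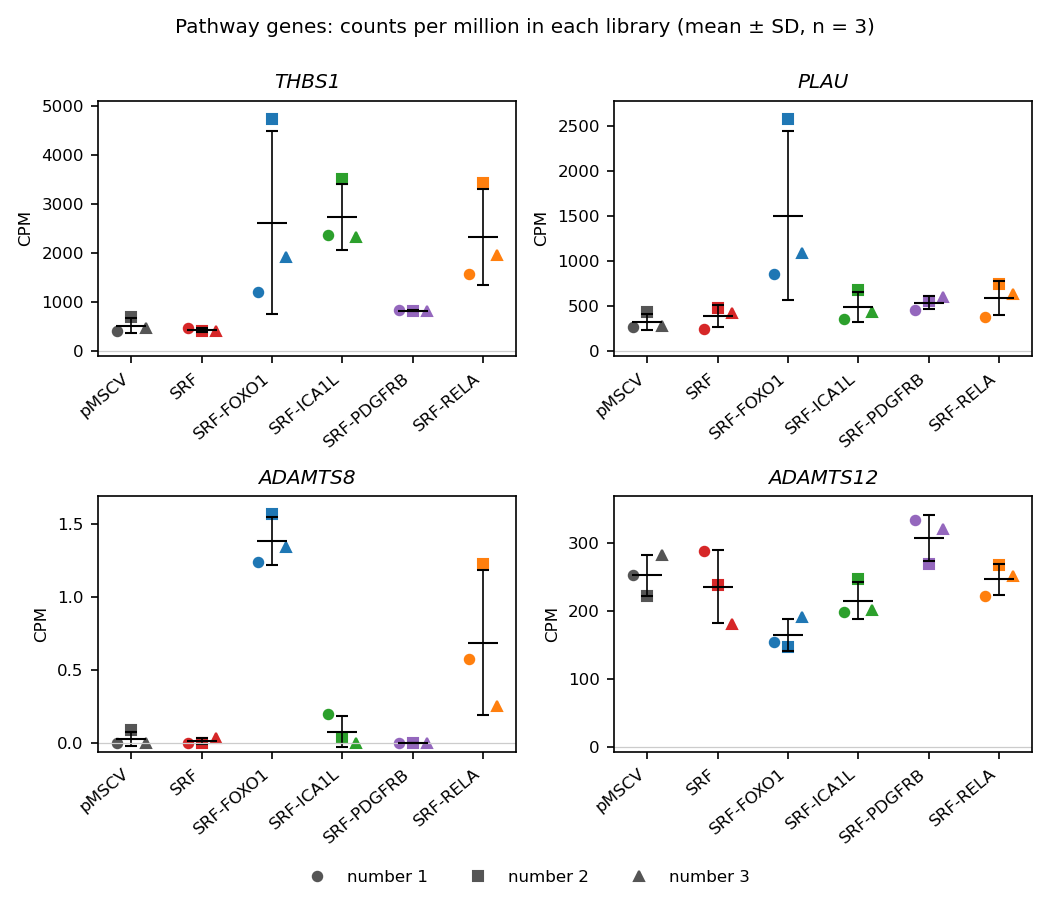
CPM (vertical axes, linear) of 4 genes of the wider lists that passed in edgeR without the block, in each of the 18 libraries by group, with library numbers as marker shapes and mean ± SD (n = 3) in black. THBS1 is at 1208 CPM or above in SRF-RELA, in SRF-ICA1L and in those labelled SRF-FOXO1 and at 840 CPM or below elsewhere, and PLAU and ADAMTS8 are highest on average in the libraries labelled SRF-FOXO1.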

How the data were processed

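The 18 MSC-hTERT libraries were made with a stranded mRNA kit and sequenced on an Illumina NovaSeq, per the labels' protocols. Reads were processed by the authors with FastQC 0.11.8, Trimmomatic 0.39, HISAT2 and featureCounts (Subread 2.0.3) on GRCh38, per the submitters' processing notes, and the annotation and the strand setting are not given in the sources used here. The deposited values are raw counts per Ensembl gene, and 61369 of 61487 identifiers matched a symbol in the gene-name table and 105 more in GENCODE 29. The members and lists were chosen with earlier results of these data known.

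From the counts, edgeR 4.0.16 (R 4.3.3) with TMM scaling, filterByExpr (minimum count 10) and the quasi-likelihood test was fitted to all 18 libraries (12 residual degrees of freedom), with Benjamini-Hochberg adjustment over 18544 genes in each of 15 comparisons. It was tested on simulated data. Genes with an adjusted p under 0.05 were called. DESeq2 1.42.0 was an alternative. The second edgeR fit had the library number as a block (10 residual degrees of freedom). Deviations from group means correlated above 0.1 in 44 of 45 same-number pairs (median 0.38). The median was -0.18 in 90 pairs with different numbers. Deviations cancel within a group, so this negative value largely follows from the positive one and is not a separate observation. The exception among same-number pairs was library 1 of SRF with library 1 of SRF-FOXO1 (0.0875). For that comparison the block is therefore given only with the alternatives. No libraries were identical.

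Named in the text are the 10 members, the listed genes called by the fit without the block (up to 5 per comparison), the 5 genes closest to TIMP3 by Pearson's r of log2 CPM (prior count 2), and overlapping and context genes. The result of 1 listed gene is not reported here, though it stays in the list counts.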

Additional observations from a re-analysis of the deposited data

How the results depend on the processing

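The count of members called without the block was 0 in each of the 3 families. It became 2, 0 and 2 with DESeq2 and 6, 2 and 5 with the replicate block (comparisons with pMSCV, with SRF and between fusions), and 0 to 1, 0 to 1 and 0 to 0 when 1 library was left out (TIMP4 against pMSCV without library 1 labelled SRF-FOXO1, library 3 of SRF or library 2 of SRF-RELA, and MMP2 against SRF without library 3 of SRF). For the libraries labelled SRF-FOXO1 against SRF, whose pairs did not all correlate above 0.1, the block called TIMP4 (log2 difference 2.21, edgeR adjusted p = 0.0245) and TIMP2 (-0.59, 0.0403). In that comparison the block called 7.23% of all genes, ADAM19 (higher) among them. The list counts of 4, 6 and 2 became 9, 14 and 16 with DESeq2 and 16, 21 and 26 with the replicate block. Beside these, the block called 2.62% of all gene tests against pMSCV and 1.84% between fusions. Against SRF it called 7.23% of all genes in the libraries labelled SRF-FOXO1 and 1.73% to 4.73% in the other fusions. For DESeq2 the share of all genes by family is not given, so its counts are a description. The list counts became 1 in each family when only the 2 groups compared were fitted. Without a count filter they were 2 against pMSCV and 4 between fusions, and with at least 10 counts in every library the count between fusions was 1. Leaving out 1 library gave 0 to 6, 0 to 10 and 0 to 7. The family against pMSCV fell to 0 without library 1 or library 3 of pMSCV and to 1 without library 2, and the family against SRF fell to 0 without library 2 of SRF and to 1 without library 1, and was 10 without library 1 labelled SRF-FOXO1. Between fusions it was 0 without any 1 SRF-PDGFRB library, 7 and 5 without library 1 and 2 labelled SRF-FOXO1, and 4 without library 2 of SRF or of SRF-RELA. Of the 713 alternative values of the 56 printed log2 differences, 629 stayed the same, 50 lost the call, 30 gained a call and 4 moved, and none changed sign. Staying the same meant the same direction and side of the threshold, which includes staying uncalled. For TIMP3, which has no test, it meant a shift under 1 SE, and the 4 that moved were of TIMP3. Each printed call of THBS1, PLAU, ADAMTS8 and ADAMTS12 without the block was lost in 2 to 5 of the 6 fits that left out 1 library. TIMP4, MMP3, MMP10 and ADAMTS8 rest on few counts, and no statement is made on a MMP10 difference beyond its floor. Scaling to total counts shifted the median of all genes by -0.11 in SRF-ICA1L against pMSCV and against SRF-PDGFRB, and by less than 0.1 in the other comparisons.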
